A study of Mus musculus with 10 samples.

Results

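The genes described here are 7 Cyp2a and Cyp2b genes in mouse liver, *Cyp2a4*, *Cyp2a5*, *Cyp2a12*, *Cyp2a22*, *Cyp2b9*, *Cyp2b10* and *Cyp2b13*, together with the genes of the xenobiotic receptors CAR (*Nr1i3*) and PXR (*Nr1i2*). These 9 were taken by symbol from the 24052 gene symbols listed for each liver, of which 17746 had a count in any liver. They were selected from genes that differed between the groups in these same livers, so their differences are given as a description and carry no test. RNA was sequenced from 10 livers, 1 library per liver: 5 from wild-type (WT) mice and 5 from Ndrg3 LKO mice, in which exon 4 of *Ndrg3* was deleted in hepatocytes by Cre driven from the albumin promoter. Both groups had a C57BL/6 background and fed ad libitum. The study's methods describe WT littermates as controls and mainly male mice, and give an age of 8 to 10 weeks, while a figure legend gives 10 to 12 weeks. Between 20872262 and 24747870 reads were counted on genes in a WT liver, and between 23474693 and 30450057 in an Ndrg3 LKO liver. Because each library is bulk tissue, fewer cells of a type and less RNA per cell cannot be told apart.

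CAR and PXR are nuclear receptors that sense drugs, bile acids and other foreign or toxic molecules in hepatocytes. CAR is held in the cytoplasm by chaperones until it is released into the nucleus, and both receptors then bind DNA as heterodimers with RXR and switch on cytochrome P450 genes, of which *Cyp2b10* is the classical CAR target in the mouse. *Cyp2a5* encodes coumarin 7-hydroxylase, and its near copy *Cyp2a4* encodes a steroid 15-alpha-hydroxylase. *Cyp2a4*, *Cyp2b9* and *Cyp2b13* are known for being far more abundant in livers of females than of males, a bias set by the pattern of growth hormone release.

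In every Ndrg3 LKO liver *Ndrg3* was below every WT liver, at 8.07 ± 0.76 CPM (SD, n = 5) against 18.5 ± 2.22 CPM in WT, where CPM are counts per 1000000 reads after TMM scaling of the library size. The log2 fold change was -1.20 ± 0.13 (SE), with an adjusted p of 3.87e-05 in edgeR's quasi-likelihood test. The counts cover the whole gene, not exon 4 by itself. Ndrg3 LKO replicate 5 stood apart from the other LKO livers over all genes: on the first principal component, which carried 68.7% of the variance, it was at 14.1, while LKO replicates 1 to 4 lay between 51.1 and 56.6 and the WT livers between -49.9 and -43.1. Its *Ndrg3* level, 8.26 CPM, lay within the range of the other 4 LKO livers. A figure legend of the study lists fewer LKO livers than were deposited and does not say which was left out. The fold changes of the 9 genes and the counts of each list that differ without replicate 5 are therefore given both ways.

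The Cyp2a and Cyp2b genes lie in 1 cluster on chromosome 7, and several are near copies of each other, which bears on how reads can be assigned. Positions are on NCBIM37, the assembly also called mm9. *Cyp2a4* (chr7:27092209-27100107, plus strand) and *Cyp2a5* (chr7:27620324-27628567, plus strand) differ at 23 of 1485 coding bases, an identity of 98.5%. *Cyp2a12* and *Cyp2a22* share 97% of their coding bases, and *Cyp2b9* and *Cyp2b13* share 92.5%. Of all 100-base windows of the *Cyp2a4* transcript, 11.3% occur unchanged in *Cyp2a5* and cannot tell the copies apart. A read of this length from the rest of the transcript carries at least 1 base that does.

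The similarity extends into the promoters. The 250 bases before the RefSeq start of *Cyp2a4* (chr7:27091961-27092210, plus strand) and of *Cyp2a5* (chr7:27620108-27620357, plus strand) differ at 4 of 249 aligned positions, shown in capitals; they are printed because these genes, with almost the same promoter letters, differed in opposite directions. The sequences are RefSeq's promoters of GRCm38.p6, placed on NCBIM37 by an exact match, and their starts lie 2 bases inside the annotated *Cyp2a4* and 34 bases inside the annotated *Cyp2a5*.
Cyp2a4: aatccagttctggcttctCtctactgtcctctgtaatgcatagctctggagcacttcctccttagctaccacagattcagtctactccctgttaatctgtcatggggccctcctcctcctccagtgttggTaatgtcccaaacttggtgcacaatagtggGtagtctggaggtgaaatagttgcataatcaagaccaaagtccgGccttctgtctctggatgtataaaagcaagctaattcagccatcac
Cyp2a5: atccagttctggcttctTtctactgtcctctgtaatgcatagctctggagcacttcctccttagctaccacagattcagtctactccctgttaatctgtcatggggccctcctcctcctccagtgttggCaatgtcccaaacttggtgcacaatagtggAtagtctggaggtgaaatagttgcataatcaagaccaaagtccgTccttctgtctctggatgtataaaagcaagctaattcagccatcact

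Both hold TTGCATAA, a palindrome-like motif of the kind bound by C/EBP and PAR bZIP factors, 70 bases before the RefSeq start of *Cyp2a4* and 71 before that of *Cyp2a5*. Among the other 7 genes, *Cyp2b10* also holds it, 58 bases before its RefSeq start, which lies 38 bases inside the annotated gene, and 0.743% of 32851 mouse promoters of the same length do on either strand. This motif was picked after the promoters had been read. TATAAA occurs in the promoters of all 4 Cyp2a genes and in 13.6% of all promoters.

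The promoters of *Cyp2b9* (chr7:26958178-26958427, plus strand) and *Cyp2b13* (chr7:26846264-26846513, plus strand) are still closer, with 2 of 250 positions differing, again in capitals. They are shown because *Cyp2b9* was abundant in the Ndrg3 LKO livers and *Cyp2b13* was barely detected in any liver.
Cyp2b9: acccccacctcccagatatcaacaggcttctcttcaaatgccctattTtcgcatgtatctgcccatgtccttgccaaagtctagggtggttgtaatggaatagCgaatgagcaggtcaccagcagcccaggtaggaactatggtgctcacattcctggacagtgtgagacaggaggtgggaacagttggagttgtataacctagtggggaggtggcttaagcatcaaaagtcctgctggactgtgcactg
Cyp2b13: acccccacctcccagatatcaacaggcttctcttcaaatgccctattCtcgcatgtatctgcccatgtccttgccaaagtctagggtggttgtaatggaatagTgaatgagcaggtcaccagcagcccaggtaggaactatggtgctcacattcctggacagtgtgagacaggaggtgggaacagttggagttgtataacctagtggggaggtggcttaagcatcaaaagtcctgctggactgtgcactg

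CAR and PXR are known to bind repeated half-sites. The 5000 bases before each annotated gene start were searched on both strands for 2 half-sites in the same direction with 4 bases between them. Repeats with any other first half-site than the one given here were not searched for. The first half-site had to be AGGTCA while the second could be AGGTCA or AGTTCA or else AGTACA. Among the 9 genes such a repeat was found once, before *Cyp2b10* (chr7:26680341-26680356), with its first base at position -2298 from the annotated start and on the strand opposite to the gene. It was found before 111 of 22212 coding genes, or 0.5%, among them *Cyp2t4*, a neighbour in the cluster (chr7:27937992-27938007, at position -741 from its gene start). The 40 bases around it are printed in the direction of the gene, with the half-sites in capitals. The most similar stretch before *Cyp2b9* (chr7:26957578-26957617) differs at 9 of the 40 bases, in capitals on its line, and 2 of these lie in the half-sites. *Cyp2b13* has the same letters there as *Cyp2b9*.
Cyp2b10: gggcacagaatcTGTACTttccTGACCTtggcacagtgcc
Cyp2b9: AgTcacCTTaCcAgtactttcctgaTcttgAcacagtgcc

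Of the 9 genes, 8 passed the filter of at least 1 CPM in at least 5 livers, which was set on CPM of the total count before TMM scaling. *Cyp2a4*, *Cyp2a22* and *Cyp2b9* passed it through their levels in the Ndrg3 LKO livers (2, 1 and 0 WT livers reached 1 CPM on that scale), and *Cyp2b13* did not pass. WT and LKO livers did not overlap for 5 of them: *Cyp2a4* and *Cyp2b9* were higher in all 5 LKO livers, and *Nr1i3*, *Cyp2a5* and *Cyp2a12* were lower. Over all 11208 genes that passed, the groups did not overlap with LKO higher for 15.6% and with LKO lower for 15.9%, and since the 9 genes were chosen on this contrast nothing is read from the comparison. The remaining *Nr1i2*, *Cyp2b10* and *Cyp2a22* overlapped.

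**Figure D1:**
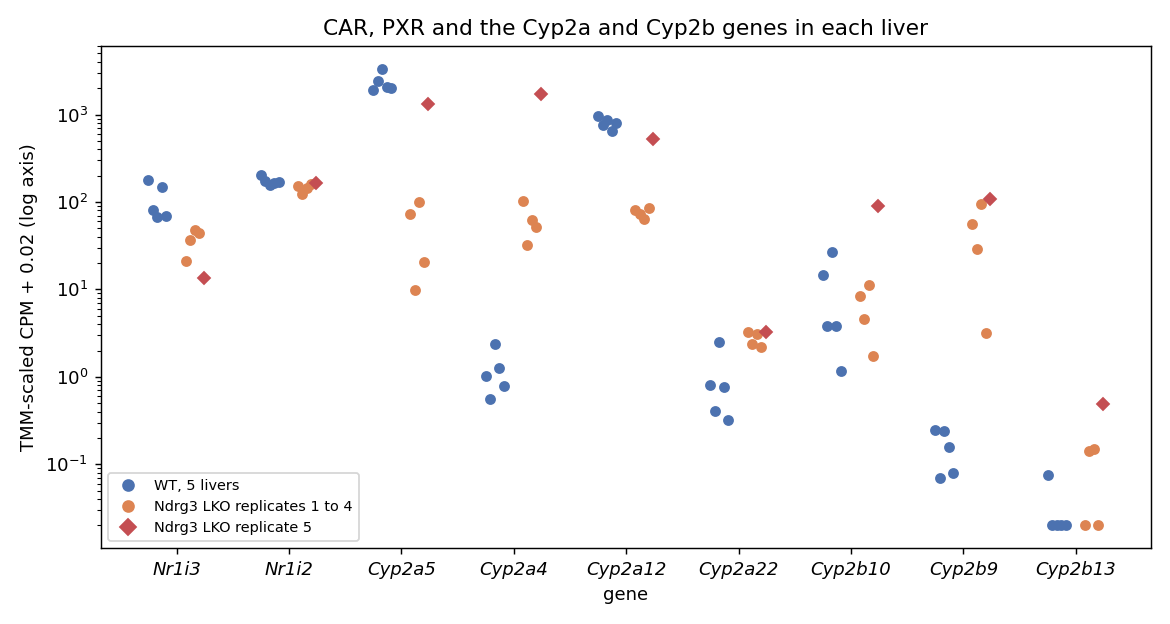
Level of CAR (*Nr1i3*), PXR (*Nr1i2*) and the 7 Cyp2a and Cyp2b genes in each liver, in TMM-scaled CPM with 0.02 added, on a log axis. Blue points are the 5 WT livers, orange points Ndrg3 LKO replicates 1 to 4 and red diamonds LKO replicate 5, which lies near the WT livers for *Cyp2a5* and *Cyp2a12* and far above them for *Cyp2a4* and *Cyp2b9*.

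CAR was lower in the Ndrg3 LKO livers. *Nr1i3* (chr1:173144101-173150832, plus strand) was at 177, 80.6, 67.9, 148 and 69.6 CPM in WT replicates 1 to 5 and at 21.1, 36.5, 47.7, 44.3 and 13.5 CPM in LKO replicates 1 to 5. All LKO livers lay below all WT livers, and replicate 5 was the lowest of the 10. The log2 fold change was -1.73 ± 0.38 (SE), and -1.55 ± 0.33 without LKO replicate 5. *Nr1i3* overlaps *Tomm40l* on the other strand, with 12.1% of its 100-base windows shared, and the strand setting of the counting is not stated.

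PXR differed far less. *Nr1i2* (chr16:38248409-38294910, minus strand) had 202, 174, 155, 163 and 168 CPM in the WT livers and 151, 124, 145, 160 and 164 CPM in the LKO livers. The groups overlapped, although 3 of the 5 LKO livers were below the lowest WT liver. The log2 fold change was -0.21 ± 0.13 (SE), and -0.26 ± 0.13 without LKO replicate 5. It turned to 0.31 when libraries were scaled by their total alone, a scaling that moves the median of all genes from 0.03 to 0.56. Relative to that median the value was -0.24 with TMM and -0.25 with total counts.

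*Cyp2b10* (chr7:26682639-26711643, plus strand), the CAR target with the repeat printed above, varied more within the groups than between them. It was at 14.7, 3.82, 27.0, 3.82 and 1.13 CPM in the WT livers, and at 8.44, 4.52, 11.2, 1.71 and 89.9 CPM in the LKO livers. Only LKO replicate 5 was above the WT range, and it was also the liver with the least *Nr1i3*. With all livers the log2 fold change was 1.19 ± 1.0 (SE), and without LKO replicate 5 it turned to -0.65 ± 0.75.

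*Cyp2a5*, the most abundant of the 9 genes per kb of exon in WT livers, was far lower in LKO replicates 1 to 4. The WT livers had 1906, 2391, 3336, 2047 and 1993 CPM, and the LKO livers 71.9, 9.90, 98.9, 20.8 and 1307 CPM. All LKO livers lay below the WT range, and replicate 5 was nearest to it. The log2 fold change was -2.95 ± 1.1 (SE) with all livers and -5.55 ± 0.65 without LKO replicate 5.

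*Cyp2a4*, its near copy, differed in the other direction. It had 18, 11, 42, 27 and 13 reads in the WT livers, or 0.54 to 2.34 CPM. In the LKO livers it reached 103, 32.3, 62.5, 51.7 and 1700 CPM. Every LKO liver was above every WT liver, and LKO replicate 5 was far above the other LKO livers. The pooled level in LKO was 225 times that in WT (95% exact counting interval 187 to 274, counting error only), and 52.1 times (43.2 to 63.4) without LKO replicate 5. On the log2 scale the fitted changes were 8.36 ± 1.4 and 5.71 ± 0.42 (SE).

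*Cyp2a4* made up between 0.0225% and 0.0702% of the reads on *Cyp2a4* and *Cyp2a5* together in the WT livers. These shares bound from above how many *Cyp2a5* reads could have been placed on *Cyp2a4* there. In the LKO livers the same shares were 59%, 76.5%, 38.7%, 71.3% and 56.5%. LKO replicate 5 did not stand apart by this measure, though its sum of both genes, 1621 CPM per kb, was above the highest WT liver at 1611 CPM per kb, while LKO replicates 1 to 4 had 23.6 to 94.8 CPM per kb.

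*Cyp2a12* (chr7:27814109-27821826, plus strand), a further family member, was at 963, 768, 873, 650 and 801 CPM in the WT livers and at 80.6, 73.6, 63.1, 84.3 and 524 CPM in the LKO livers. Again the groups did not overlap and LKO replicate 5 was closest to WT. The log2 fold change was -2.30 ± 0.57 (SE), and -3.44 ± 0.17 without it. *Cyp2a22* (chr7:27716650-27724405, minus strand) was near the filter, at 0.298 to 2.51 CPM in WT and 2.17 to 3.23 CPM in LKO livers. WT replicate 3, at 2.51 CPM, overlapped with LKO replicates 2 and 4. Its log2 fold change was 1.57 ± 0.46 (SE), 1.51 ± 0.48 without LKO replicate 5 and 2.31 without WT replicate 3.

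*Cyp2b9* (chr7:26958430-26995680, plus strand), a female-biased steroid-metabolising P450, was almost without reads in WT livers and above the filter of 1 CPM in all LKO livers. WT livers had 4, 1, 4, 3 and 1 reads, and LKO livers 1960, 1196, 3676, 111 and 2306 reads, or 56.4, 29.0, 94.8, 3.17 and 109 CPM. The lowest LKO liver, replicate 4, was still above all WT livers, and replicate 5 was the highest, next to replicate 3. The pooled level in LKO was 394 times that in WT (95% exact counting interval 230 to 740, counting error only), and 338 times (197 to 634) without LKO replicate 5. The fitted log2 fold changes, whose SE includes the variation between livers, were 8.68 ± 1.0 and 8.32 ± 0.97 (SE). *Cyp2b13* (chr7:26846514-26881215, plus strand), with the nearly identical promoter, had 1 read in all WT livers together and 0, 5, 5, 0 and 10 reads in the LKO livers. The pooled ratio rests on that 1 WT read and was 11.1 (95% exact counting interval 1.77 to 459), or 6.32 (0.899 to 274) without LKO replicate 5. *Cyp2b13* overlaps *Gm8946* on its own strand.

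Per kb of exon, the 7 Cyp2a and Cyp2b genes summed to between 1383 and 2152 CPM per kb in WT livers. LKO replicates 1 to 4 had 179, 86.8, 180 and 94.5 CPM per kb, and LKO replicate 5 had 2040, within the WT range. The shares of *Cyp2a5*, *Cyp2a4* and *Cyp2b9* in this sum did not overlap between WT and LKO livers, nor did the small shares of *Cyp2b10* and *Cyp2a22*, whose levels in CPM overlapped. In WT livers *Cyp2a5* took 60.9% to 74.8% of it and *Cyp2a12* 24.5% to 38.6%. In LKO livers *Cyp2a5* took 5.51% to 30.9%, *Cyp2a4* 20.3% to 48.6% and *Cyp2b9* 1.79% to 28.1%. *Cyp2a12* took 15.5% to 53.9%, which overlapped with WT. *Cyp2b10* took 0.0371% to 0.594% in WT and 0.858% to 2.94% in LKO livers, and *Cyp2a22* 0.00926% to 0.0524% and 0.0707% to 1.22%.

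**Figure D2:**
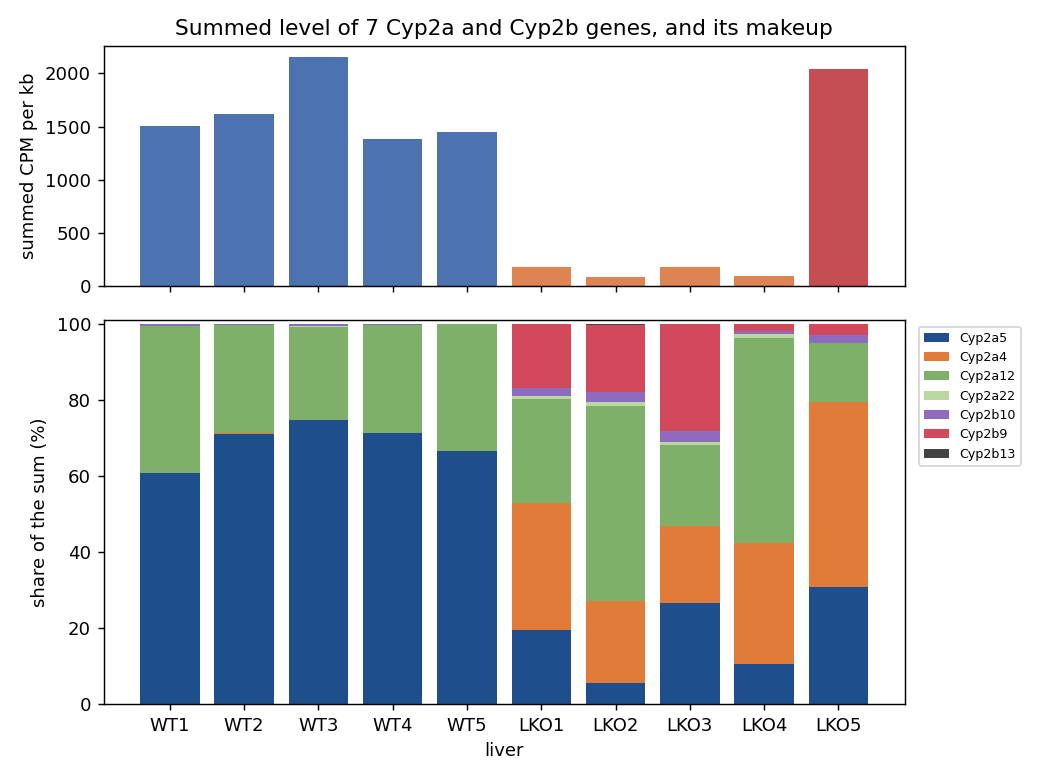
Summed level of the 7 Cyp2a and Cyp2b genes per kb of exon in each liver (top, CPM per kb) and the share of each gene in that sum (bottom, percent). The total of LKO replicate 5 is like WT, but its makeup, with 48.6% *Cyp2a4*, is not, as no WT liver has over 0.0634%.

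The order of the levels per kb was not the same in the groups. In WT livers it ran *Cyp2a5* (1126 CPM per kb of all exons), *Cyp2a12* (490), *Nr1i2* (67.5), *Nr1i3* (24.6), *Cyp2b10* (4.78), *Cyp2a4* (0.688), *Cyp2a22* (0.424), *Cyp2b9* (0.074) and *Cyp2b13* (0.00599). Neighbours did not overlap over the livers except *Cyp2b10* with *Cyp2a4*, *Cyp2a4* with *Cyp2a22*, and *Cyp2b9* with *Cyp2b13*. The order of the receptors depends on the length used: over the 1414 bases of its longest coding transcript in place of its 4414 exon bases, *Nr1i3* was at 76.8 ± 35.7 CPM per kb in WT (SD, n = 5; 48.0 to 125), overlapping with *Nr1i2* at 60.7 to 79.1. In LKO livers *Cyp2a4* came first by its mean, 227 CPM per kb, but every neighbour down to *Nr1i3* overlapped with the next. In LKO replicates 1 to 4 *Nr1i2* came first, at 56.8 ± 5.94 CPM per kb (SD, n = 4), and overlapped with *Cyp2a12* at 45.5 ± 5.62.

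The other Cyp2 genes of the cluster were mostly silent in liver. *Cyp2f2*, a naphthalene-metabolising P450 and the only 1 of these 6 that passed the filter, was at 856 to 1511 CPM in WT and at 25.6, 22.9, 11.2, 70.0 and 809 CPM in LKO livers, so that it paralleled *Cyp2a5* and *Cyp2a12* in that LKO replicate 5 was nearest to WT. Its log2 fold change of -2.72 ± 1.0 (SE) had an adjusted p of 0.0431. Leaving out any 1 of the livers other than LKO replicate 5 raised this p to 0.0569 or more, up to 0.0914. Without LKO replicate 5 it was 6.61e-06, at a log2 fold change of -5.27 ± 0.51 (SE). *Cyp2g1*, *Cyp2s1*, *Cyp2t4*, *Cyp2b19* and *Cyp2b23* were listed at up to 34 reads, *Cyp2b19* at 0 in every liver. Along the cluster, *Cyp2b9* and *Cyp2a4*, higher in LKO, lie 276 and 410 kb from the start of *Cyp2b10*. *Cyp2a5*, *Cyp2a12* and *Cyp2f2*, lower in LKO, lie at 938, 1131 and 1222 kb, and *Cyp2a22*, whose groups overlapped, lies between them at 1034 kb.

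**Figure D3:**
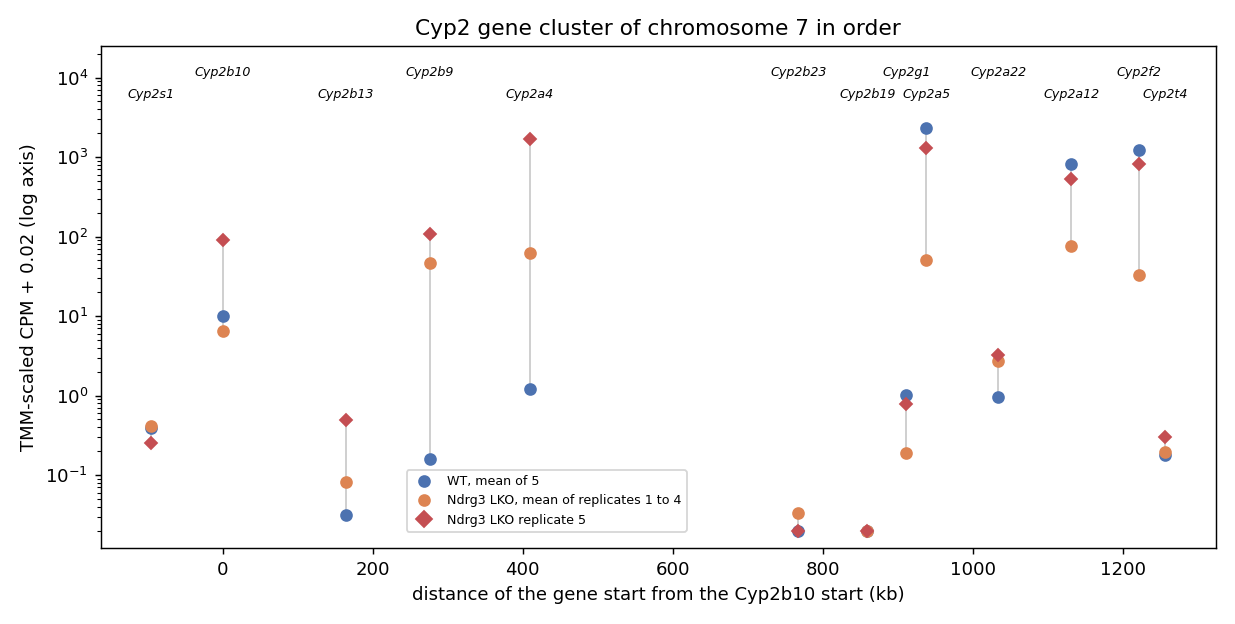
Level of each Cyp2 gene of the chromosome 7 cluster (TMM-scaled CPM with 0.02 added, log axis) by the distance of its start from that of *Cyp2b10* in kb. Blue points are WT means, orange points the mean of LKO replicates 1 to 4 and red diamonds LKO replicate 5; higher *Cyp2b9* and *Cyp2a4* lie to the left of lower *Cyp2a5*, *Cyp2a12* and *Cyp2f2*.

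Genes around the receptors and their P450 targets were then read from lists, whose counts stand beside those of all genes tested. Of 11208 genes, edgeR's quasi-likelihood test called 48.6% at an adjusted p under 0.05, 25.6% higher and 23.0% lower, and the median log2 fold change was 0.03. With scaling by total counts alone 5834 genes were called higher and 1005 lower, where TMM gave 2865 and 2578, and that split is given beside each list whose balance moved with it. Without LKO replicate 5, where 4 livers at 1 CPM were enough to pass the filter, it called 55.6% of 11446 genes, 28.4% higher and 27.2% lower. The lists, like the 9 genes, were drawn up with earlier results known. Of 60 list genes named by rule and tested in both fits, 0 changed their call in edgeR's test without LKO replicate 5, and *Cyp3a11* turned its sign.

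Of 18 known targets of CAR or PXR outside Cyp2a and Cyp2b that were tested, 11 were called lower and 2 higher with TMM, with a median log2 fold change of -0.85, and 7 lower and 4 higher with total-count scaling. *Cyp2c54*, *Cyp2c50* and *Cyp2c37*, P450s of the Cyp2c cluster, showed the largest falls. *Cyp2c54* went from 274 to 464 CPM in WT to between 2.0 and 13.8 CPM in LKO livers (log2 fold change -5.75 ± 0.48, adjusted p 8.92e-06). *Cyp2c50* and *Cyp2c37* changed by -4.88 and -4.21 on the log2 scale, with adjusted p of 3.95e-05 and 1.68e-05. *Cyp2c55*, the best known inducible member of that cluster, rose by 2.48 ± 0.35 on that scale (adjusted p 0.000206). *Cyp3a11*, the classical PXR target, was the most abundant gene of the list and gave a log2 fold change of 0.30 ± 0.30 that was not called (adjusted p 0.427; -0.03 without LKO replicate 5, and 0.76 and called higher with total-count scaling, adjusted p 0.0116), with LKO replicate 5 at 8439 CPM above the WT range of 2982 to 5170 CPM. Without LKO replicate 5 the counts were again 11 lower and 2 higher.

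The partners and regulators of the receptors did not move as a block. Of 20 tested, 4 were called higher and 4 lower, with a median of 0.02. Leaving out LKO replicate 5 gave 6 higher and 5 lower, and total-count scaling 10 and 3. The RXR genes were not called with TMM and all livers: *Rxra*, the main partner of CAR and PXR in liver, had a log2 fold change of 0.11 ± 0.17 (adjusted p 0.596). *Rxrg*, the least abundant, was called higher without LKO replicate 5 (log2 fold change 0.71 ± 0.21, adjusted p 0.0137), and with total-count scaling *Rxra*, *Rxrb* and *Rxrg* were called higher (0.65, 0.70 and 1.12), where the median of all genes was 0.56. *Hnf4a*, the nuclear receptor needed for *Cyp2a5* and *Nr1i3* expression in liver, was the most abundant and fell by 1.58 ± 0.21 (adjusted p 0.000134). *Nr0b2* (SHP), a corepressor of nuclear receptors, fell by 2.18 ± 0.47 (adjusted p 0.00286), and *Cebpa* fell by 1.76 (adjusted p 0.000475).

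The coactivator gene *Ppargc1a* rose from 9.73 to 14.0 CPM in WT to between 41.4 and 140 CPM in LKO livers, a log2 fold change of 2.76 ± 0.33 (adjusted p 7.04e-05). *Nfe2l2* (NRF2), a regulator of *Cyp2a5* under oxidative stress, rose by 2.21 ± 0.28 (adjusted p 0.000111), and *Dbp*, a PAR bZIP factor of the liver clock, by 2.40 ± 0.42 (adjusted p 0.000772). The other PAR bZIP genes of the list did not follow: *Hlf* fell by 0.57 (adjusted p 0.00642, and 0.909 with total-count scaling), and *Tef* had a log2 fold change of -0.27 (adjusted p 0.129) and fell by 0.40 without LKO replicate 5 (adjusted p 0.0104), but was at 0.22 with total-count scaling. In LKO replicate 5 *Nfe2l2* was at 69.5 CPM and in the other LKO livers at 207 to 256 CPM, while the WT livers had 37.4 to 45.4 CPM.

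Of the 8 genes that hold CAR in the cytoplasm or act on its release, 3 were called lower and 2 higher with TMM, and 0 and 4 with total-count scaling. *Egfr*, whose signal restrains CAR, fell by 0.98 ± 0.20 (adjusted p 0.00184), and *Dnajc7*, the cochaperone that retains CAR, fell by 0.77 ± 0.20 (adjusted p 0.00757). *Ppp2r1a*, a scaffold subunit of phosphatase 2A, rose by 0.59 ± 0.14 (adjusted p 0.00403), and *Gnb2l1* (RACK1) by 0.57 ± 0.16 (adjusted p 0.0118). With total-count scaling *Egfr* and *Dnajc7* kept their sign and were no longer called, with adjusted p of 0.128 and 0.112. *Hsp90ab1*, the most abundant of the list, was not called with TMM (adjusted p 0.583), and was called higher with total-count scaling (log2 fold change 0.63, adjusted p 0.00328).

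P450 enzymes need electrons and heme. Of 4 genes that pass electrons to them, 3 were called lower with TMM: *Por*, the P450 reductase (log2 fold change -0.49 ± 0.15, adjusted p 0.0213), *Cyb5*, cytochrome b5 (-0.76 ± 0.20, adjusted p 0.00786), and its reductase *Cyb5r3* (-0.73 ± 0.17, adjusted p 0.00408). With total-count scaling none of these was called, the remaining gene *Cyb5b* was called higher (adjusted p 0.000936), and *Por* turned to 0.04 (adjusted p 0.842, 0.208 and 0.144). *Por* also lost its call without LKO replicate 1 or LKO replicate 4 (adjusted p 0.0593 and 0.0527). Of 12 heme genes 2 were called higher and 2 lower, and 3 and 2 without LKO replicate 5, and 8 and 1 with total-count scaling. *Alas1*, the rate-limiting enzyme of heme synthesis and itself a CAR and PXR target, fell by 1.67 ± 0.29 (adjusted p 0.000782), and *Fech*, which inserts iron, by 0.67 ± 0.17 (adjusted p 0.00618; not called with total-count scaling, at 0.461). *Alad*, the second enzyme of the pathway, rose by 0.97 ± 0.19 (adjusted p 0.00154) and *Hmox1*, which breaks heme down, by 0.99 ± 0.24 (adjusted p 0.00511).

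Because *Cyp2a4*, *Cyp2b9* and *Cyp2b13* are female-biased, genes of liver sex bias were read beside them. The male-biased list was lower throughout: of its 16 genes 15 passed the filter, and all 15 were called lower with and without LKO replicate 5, with a median log2 fold change of -3.86 and -3.74. *Selenbp2* went from 2162 to 3964 CPM in WT to between 1.39 and 31.8 CPM in LKO livers, a log2 fold change of -8.30 ± 0.97 (adjusted p 6.38e-05). Without LKO replicate 5 its log2 fold change was -9.36 ± 0.79. *Mup7*, *Ugt2b38* and *Elovl3* had log2 fold changes of -7.21, -5.68 and -5.08 (adjusted p 0.000105, 0.000121 and 0.000426), and *Mup20*, the most abundant, fell by 4.10 (adjusted p 7.77e-05). In LKO replicate 5 the summed level of the list, 1340 CPM, was within the range of the other LKO livers, 947 to 2143 CPM, while the WT livers had 18557 to 34160 CPM.

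The female-biased list outside Cyp2a and Cyp2b was mixed. Of its 15 genes, 6 passed the filter, 2 were called higher and 0 lower, and the median was 0.00. Without LKO replicate 5, 7 passed, of which 3 were called higher, among them *Cyp3a44*, and 1 lower, *Cyp2c40* (log2 fold change -1.55, adjusted p 0.00534), and with no filter 6 were called. *Tox* rose by 2.51 ± 0.44 (adjusted p 0.000869). *Cyp17a1*, a steroid hydroxylase, rose by 2.36 ± 0.69 (adjusted p 0.0148) with LKO replicate 5 at 291 CPM, and by 0.97 ± 0.29 without it (adjusted p 0.0135). The remaining 9 genes did not pass the filter with all livers. Among them *Cyp3a44* was at 0.092 to 0.337 CPM in WT and 1.09 to 184 CPM in LKO livers without overlap. Its lowest LKO liver, replicate 5, was under 1 CPM before TMM scaling, and without that liver the gene passed only through the LKO livers in which it was high, so its call is given no weight. *Cyp3a41a* reached 18.2 CPM in an LKO liver against at most 0.092 CPM in WT, and *Cyp3a41b* was at 0 in every liver. The sex of the libraries was read from *Xist*, which had at most 2 reads in any liver, and from *Ddx3y*, *Kdm5d*, *Uty* and *Eif2s3y* of the Y chromosome, which were counted in all 10. *Ddx3y* was the most abundant of these and was not called (adjusted p 0.691, and 0.0424 with total-count scaling), and *Eif2s3y* was called lower (log2 fold change -0.58 ± 0.17, adjusted p 0.0127, and 0.753 with total-count scaling, where 2 of these genes were called higher and 0 lower).

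Of 9 genes of growth hormone signalling, the pathway that sets sex bias, 4 were called lower and 0 higher with TMM, with a median of -0.44, and 2 lower and 1 higher with total-count scaling. The receptor gene *Ghr* fell by 1.68 ± 0.30 (adjusted p 0.00094), *Socs2*, a feedback inhibitor and STAT5 target, by 2.56 ± 0.35 (adjusted p 0.000169) and *Igf1*, the secreted product, by 0.76 ± 0.14 (adjusted p 0.00126, and 0.186 with total-count scaling). *Jak2* had a log2 fold change of -0.44 (adjusted p 0.0186) that turned to 0.09 with total-count scaling. *Stat5b*, the transcription factor of the pathway in liver, was not called (adjusted p 0.493).

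**Figure D4:**
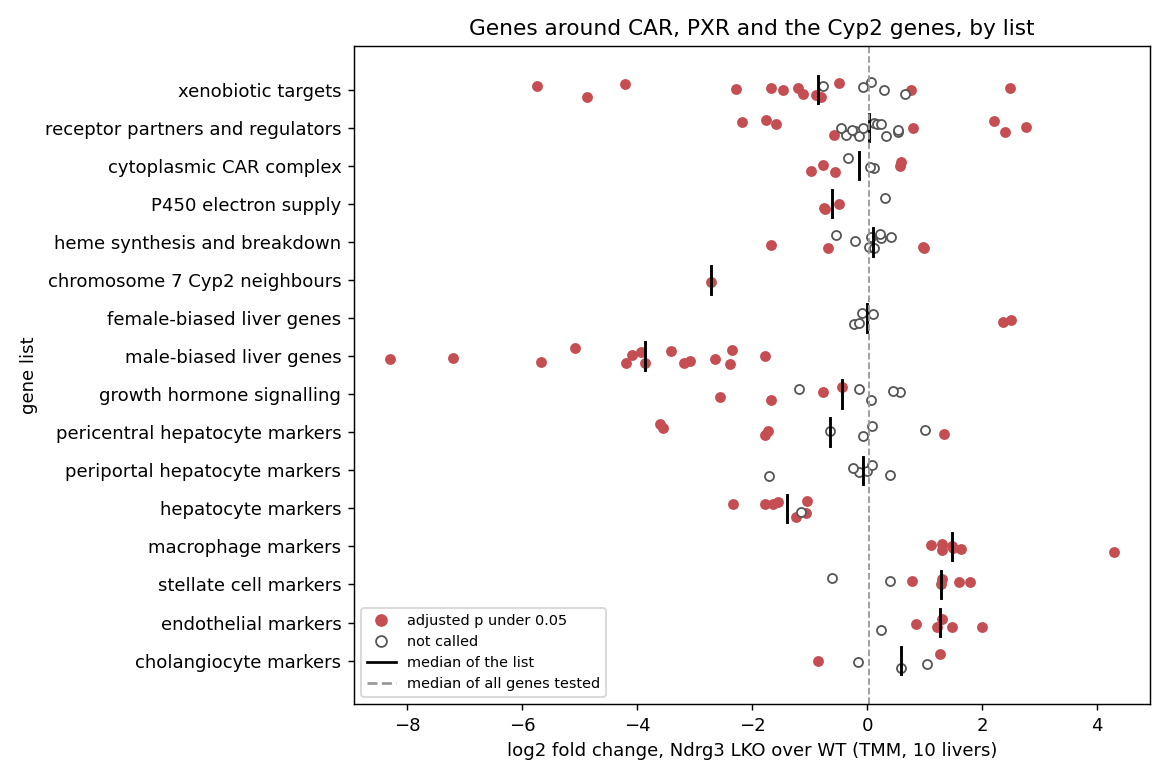
Log2 fold change of each gene tested, Ndrg3 LKO over WT with TMM scaling and all 10 livers, in 16 lists. Red points were called at an adjusted p under 0.05 and open points were not, black bars are list medians and the dashed line is the median of all genes, 0.03; *Selenbp2* and *Mup7* of the male-biased list lie farthest to the left, at -8.30 and -7.21.

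Markers of where hepatocytes lie and of which cells the tissue holds were read beside these results. *Cyp2a5* is found near the central vein. Of 9 pericentral genes 4 were called lower and 1 higher, with a median of -0.65, and 4 lower and 3 higher with total-count scaling. That 1 higher call was lost with limma, with the replicate block, and without WT replicate 2 or LKO replicate 3. Without LKO replicate 5 a further gene was called higher, *Lgr5* (adjusted p 0.0388). *Glul* and *Cyp2e1*, the most abundant, changed by -3.60 ± 0.18 and -3.56 ± 0.23 on the log2 scale (adjusted p 5.41e-07 and 1.77e-06). Their list summed to 16422 to 18911 CPM in WT livers and to 3613, 2918, 3569, 3372 and 3228 CPM in LKO livers, with the sum of replicate 5 among the others. Gene by gene, replicate 5 lay within the range of LKO replicates 1 to 4 for 2 of the 9. Of 6 periportal genes 0 were called by edgeR, 0 had an unadjusted p under 0.05, and DESeq2 called 0 and limma 1, while with total-count scaling 3 were called higher. Without LKO replicate 5 *Hal* and *Sds* were called lower. *Pck1* was the most abundant, at an adjusted p of 0.442 with all livers.

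Of 8 general hepatocyte markers 7 were called lower with a median of -1.40, and 8 with a median of -2.14 without LKO replicate 5. Their sum, carried mostly by *Alb*, was 141686 to 179935 CPM in WT livers and 41023, 31348, 31849, 35129 and 154323 CPM in LKO livers. Thus the hepatocyte sum of LKO replicate 5 was within the WT range, as was its summed Cyp2a and Cyp2b level, while its pericentral and male-biased sums were within the range of the other LKO livers. Gene by gene it was within the WT range for 4 of the 8 hepatocyte markers, with *Apoa1* at 14016 CPM below the WT livers (16788 to 24987 CPM) and *Serpina1a* at 3900 CPM above them (2020 to 3086 CPM), and for 0 of the 16 male-biased genes, while 7 of those 16 were within the range of the other LKO livers. *Alb* itself had an adjusted p of 0.0437, which rose to between 0.058 and 0.0999 on leaving out any liver other than LKO replicate 5, and was 0.0515 with a filter on the mean of at least 5 CPM. *Apoa1*, *Tat*, *Apoa2* and *Fgb* changed by -2.34, -1.78, -1.64 and -1.56 on the log2 scale, all called. Without LKO replicate 5 these changes were -3.55, -2.67, -2.23 and -1.76.

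Most markers of macrophages, stellate cells and endothelium were called higher. All 7 macrophage genes tested were called higher (median 1.47), as were 5 of 7 stellate cell genes (median 1.29) and 5 of 6 endothelial genes (median 1.26). The macrophage list, with *Clec4f* as its most abundant gene, summed to 85.6, 213, 96.2, 114 and 137 CPM in the WT livers and to 601, 192, 601, 318 and 248 CPM in the LKO livers, and *Marco* rose the most, by 4.30 ± 0.53 (adjusted p 9.07e-05). The stellate list, led by *Reln*, summed to 44.6 to 79.4 CPM in WT and 76.4 to 131 CPM in LKO livers, and *Col3a1* rose by 1.79 ± 0.31 (adjusted p 0.000813).

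The endothelial list, led by *Clec4g*, summed to 49.4 to 63.9 CPM in WT and 99.2 to 140 CPM in LKO livers, and *Lyve1* rose by 1.99 ± 0.34 (adjusted p 0.000772). Of 5 bile duct genes 1 was called higher, *Spp1*, the most abundant (log2 fold change 1.27 ± 0.39, adjusted p 0.0181, and 0.0501 without LKO replicate 1), and 1 lower, *Sox9* (-0.86, adjusted p 0.0157), and without LKO replicate 5 *Epcam* was also called higher (adjusted p 0.0315). With total-count scaling 3 bile duct genes were called higher and 0 lower. No lymphocyte gene passed the filter, and their 7 genes summed to between 1.41 and 6.61 CPM, with *Cd4* the most abundant. None of these markers was at 0 in every liver, and the part of these cells and of hepatocyte position in the levels of the 9 genes was not tested.

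Finally, the genes most like the receptors and their main targets in pattern were found over the 10 livers, as the smallest mean absolute difference in log2(CPM + 1) centred on the WT mean, among 7153 genes with a mean of at least 10 CPM. Nearest to *Nr1i3* were *Adap2*, *Il6ra*, the interleukin 6 receptor, and *Tymp*, thymidine phosphorylase, at 0.364, 0.365 and 0.366. LKO replicate 5 had 5.76 CPM of *Tymp* against a mean of 13.3 CPM in LKO replicates 1 to 4. For *Adap2* and *Il6ra* replicate 5 was close to that mean, at 3.588 against 3.805 CPM and 16.05 against 16.56 CPM. Nearest to *Nr1i2* were *Gorasp2*, *Elp2* and *Inpp5k*, at 0.07 each.

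*Akr1d1*, a bile acid reductase, *Cyp2c50* and *Serpina1d*, an alpha-1-antitrypsin gene, came nearest to *Cyp2a5*, at 0.618, 0.622 and 0.633. *Serpina1d* was at 3461 CPM on average in WT, 92.7 CPM in LKO replicates 1 to 4 and 1980 CPM in LKO replicate 5. In the same order *Akr1d1* was at 168, 3.19 and 57.7 CPM. *Cyp2c50* was at 831, 20.6 and 59.2 CPM, so that its level in replicate 5 stayed far below WT. For *Cyp2b10* the nearest were *Gstt3*, a glutathione transferase, *Gas2* and *Igfbp3*, at 0.745, 0.862 and 0.891. *Gas2* had a mean of 26.2 CPM in WT and 25.6 CPM in LKO replicates 1 to 4, and 132 CPM in LKO replicate 5.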

How the data were processed

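RNA of 10 mouse livers, 5 WT and 5 Ndrg3 LKO, was analysed, with groups taken from the labels. The authors made stranded mRNA libraries, mapped reads of 100 bases to mm9 with STAR, counted them with its count module, and deposited values per gene symbol for each liver. The deposit names these values CPM, but they are whole numbers whose totals differ between livers, and they were treated as counts without normalization. The submitters' processing notes name STAR 2.7.3a, Trim Galore 0.6.4, bcl2fastq and Cufflinks 2.2.1. The study's methods name a different version of STAR. STAR's count module is known to leave out reads that map to several places or overlap several genes. The annotation and the strand setting of the counting are not given in the sources used here, so near copies and overlapping genes are uncertain. Nothing in the labels says which mice shared a litter. The 20 pairs of livers within a group all differed by more than sampling noise.

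Genes reaching 1 CPM of the total count, before TMM scaling, in 5 or more livers (4 where a liver was left out) were fitted with TMM scaling and edgeR's quasi-likelihood test (edgeR 4.0.16, limma 3.58.1, R 4.3.3), with Benjamini-Hochberg adjustment over all 11208 genes and a threshold of 0.05. SEs come from the same fit. Every SD, range and level is in TMM-scaled CPM unless given per kb of exon (GENCODE vM1 models of NCBIM37). The test was checked on counts simulated from the means and dispersions of the WT livers, at the depths of the 10 livers. With 10591 genes in the fit, 168 of 200 changed genes were recovered. These were 74 of 100 with a log2 change of 1 and 94 of 100 with one of 2. There were 11 false calls of 179. The simulation gave both groups the spread of WT livers and changed far fewer genes than the 48.6% called here. It held no liver set apart as LKO replicate 5 is, so its rates may not hold for these livers. Identity was taken from coding sequences in place of the proteins planned.

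The 9 genes and the 18 gene lists were chosen with earlier results of these data known. Named are all 9 genes, all Cyp2 genes of the cluster, *Ndrg3*, and from each list up to 4 called genes with the largest change among those with at least 10 CPM in the higher group, plus its most abundant gene. *Cebpa*, *Rxra*, *Stat5b*, *Sox9*, *Hal*, *Sds*, *Rxrb*, *Rxrg*, *Hlf*, *Tef*, *Cyp2c40*, *Cyp3a44*, *Cyp3a41a*, *Lgr5*, *Epcam*, *Serpina1a*, *Cyb5b*, *Cyp3a41b* and *Gm8946* were named after their values were seen. Alternatives were total-count and median-of-ratios scaling, no filter, a mean of at least 5 CPM, DESeq2 1.42.0, limma on log2(CPM + 1), a replicate block, leaving out single livers, 50-base windows and, chosen after seeing the data, levels per kb of the longest coding transcript. Counting intervals cover counting error only.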

Additional observations from a re-analysis of the deposited data

Results flagged for a closer look

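Among 56 groups of 5 livers, 9 held a liver whose gap to its nearest neighbour took more than 0.71 of the group's range, where chance flags about 1 in 20. In 7 of them the liver was Ndrg3 LKO replicate 5, the highest of its group. It had 1700 CPM of *Cyp2a4* against 32.3 to 103 in the other LKO livers, 1307 CPM of *Cyp2a5* against 9.90 to 98.9, and 524 CPM of *Cyp2a12* against 63.1 to 84.3. It had 89.9 CPM of *Cyp2b10* against 1.71 to 11.2 and 0.472 CPM of *Cyp2b13*, from 10 reads, against 0 to 0.129. Its neighbouring Cyp2 genes summed to 810 CPM against 11.9 to 70.7, and its hepatocyte markers to 154323 CPM against 31348 to 41023. In the WT group, replicate 3 had 2.51 CPM of *Cyp2a22* against 0.298 to 0.787, and replicate 1 had 0.0562 CPM of *Cyp2b13*, from 1 read, where the other WT livers had 0.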

How the results depend on the processing

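TMM and total-count scaling gave different balances: 2865 genes higher and 2578 lower with TMM, 5834 and 1005 with total counts. With total counts the list counts were 13 receptor partners (8 with TMM), 1 electron supply gene (3), 9 heme genes (4), 3 periportal genes (0) and 2 genes of the sex check (1), and the log2 fold change was 0.31 for *Nr1i2* (-0.21) and 2.09 for *Cyp2a22* (1.57). Without a filter 6 female-biased and 2 lymphocyte genes were called, and with a mean of at least 5 CPM 1 bile duct gene. DESeq2 called 1 female-biased gene and limma 1 periportal gene, and limma gave 5.77, -4.94, 1.06 and 5.05 for *Cyp2a4*, *Cyp2a5*, *Cyp2a22* and *Cyp2b9*, on a scale with a pseudocount of 1. With median-of-ratios scaling every count stayed within 1.5 times and every member within its spread. The cause of these shifts was not tested.

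Livers with the same replicate number did not deviate together (correlations -0.357, -0.272, -0.313, -0.176 and 0.0363). These correlations give no sign of pairing by number, and pairing by litter was not tested. With the replicate block 4332 of the 5443 genes were also called, with 1 female-biased, 1 periportal, 1 bile duct and 6 macrophage genes, and *Cyp2a4* and *Cyp2a5* were at 6.49 and -5.25. Not called with it were *Por* (adjusted p 0.0828), *Cyp17a1* (0.0529), *Jak2* (0.0759), *Clec4f* (0.0626) and *Spp1* (0.0612). DESeq2 gave no adjusted p for *Cyp17a1* and *Alb*.

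Leaving out 1 liver at a time gave 4703 to 6360 genes called, 2486 to 3252 higher and 2217 to 3108 lower, and 0 to 1 cluster neighbours, 2 to 4 female-biased, 0 to 2 periportal and 1 to 3 bile duct genes. The log2 fold changes ran from 5.71 to 8.75 for *Cyp2a4*, -5.55 to -2.64 for *Cyp2a5*, -3.44 to -2.09 for *Cyp2a12*, 1.34 to 2.31 for *Cyp2a22* and -0.65 to 1.96 for *Cyp2b10*, which was negative only without LKO replicate 5. With 50-base windows the shared part of the transcripts was 36.5% for *Cyp2a4* and 31% for *Cyp2a5*. Levels near 1 CPM rest on few reads.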
